A study of Mus musculus with 6 samples.

Results

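The DNA replication and S phase genes described here are 44 genes that duplicate the genome, or that time and supply its duplication. They were chosen by name, with earlier results of these data known. A shift of the list is therefore a description and no independent support. All 44 were present among the 17025 genes of the deposited table and were read in each of the 6 libraries. All of them passed the filter of a mean of at least 1 FPKM (fragments scaled to gene length and to the total of the library), which left 11603 genes for testing. RNA-seq was done on epidermal cells sorted by flow cytometry for integrin α6, the receptor that ties basal keratinocytes to the basement membrane, from newborn mice (postnatal day 0). The 3 libraries labelled cKO came from mice carrying K14Cre with both Ash2l alleles floxed (K14Cre,Ash2lF/F), and the 3 labelled control came from mice carrying K14Cre with 1 floxed and 1 unmodified allele (K14Cre,Ash2lF/+). Every animal therefore carried the Cre transgene and at least 1 floxed allele, and no animal without Cre was in the series. The keratin 14 promoter drives Cre in basal keratinocytes and the epithelia that come from them, so other cells that pass the sort, such as melanocytes, keep Ash2l. ASH2L is a shared core subunit of the complexes that methylate histone H3 at lysine 4, and the series asked what its loss does to epidermal differentiation and hair follicle formation. No label says whether libraries came from separate animals, so the p-values reflect spread among libraries that may be technical.

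A cell that will divide first loads the MCM helicase onto its origins in G1, with the origin recognition complex, CDC6 and CDT1 as loaders and geminin as the inhibitor of CDT1. At the start of S phase CDC45 and the GINS complex switch the helicase on, polymerase α with primase lays primers, polymerases δ and ε copy the strands on the sliding clamp PCNA, and ligase 1 seals the lagging strand. E2F transcription factors, released from the retinoblastoma proteins by cyclin-dependent kinase activity, are the classical activators of these genes. In newborn epidermis these genes are active mainly in the basal layer and the hair follicle matrix, and spinous cells leave the cycle as they rise.

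Ash2l, the targeted gene, was at 30.9, 29.5 and 22.9 FPKM in the libraries labelled cKO and at 12.4, 18.1 and 15.9 FPKM in those labelled control. It was thus higher in every library labelled cKO, against the labels (log2 difference 0.81, SE 0.19, limma adjusted p = 0.024), a call lost without cKO 1 or 2 (adjusted p = 0.0828 and 0.0808) or control 1 or 3 (0.0564 and 0.0670). Exons were not counted apart in the deposited table, so every direction below is that of the labels. The libraries held 31578875 to 36027550 fragments. The spinous keratins Krt1 and Krt10 took 7.97 to 16.2% of all FPKM in the libraries labelled cKO, against 0.885 to 1.28% of it in those labelled control, and the median log2 difference of all genes tested was -0.17. That median moved to 0.03 when the libraries were scaled by the median of ratios, and the calls moved to 1044 higher and 1001 lower, from 681 and 1576. Below, cKO and control name the libraries so labelled. The markers of the sorted cells were present in all libraries, with sums over 10 basal keratinocyte genes of 8137 to 10502 FPKM in the libraries labelled cKO and 5090 to 8855 FPKM in those labelled control. Of the 10, 1 was called higher and 2 lower. Abundant genes weigh heavily in the sums, such as Krt5 (means 3929 (cKO) and 2823 FPKM (control)) and Krt14 (2169 (cKO) and 2336 FPKM (control)). The sums are thus no measure of the share of basal cells. Itga6, the gene of the sorted receptor, was at 53.6, 53.0 and 19.7 FPKM in the libraries labelled cKO and at 162, 78.8 and 72.05 FPKM in those labelled control. The groups did not overlap, and the log2 difference of -1.32 (SE 0.44, limma adjusted p = 0.0710) did not pass.

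Most replication genes lay lower in the libraries labelled cKO, and 7 of the 44 fell past the threshold (limma on log2(FPKM + 1), Benjamini-Hochberg adjusted p under 0.05 over all genes tested). They were Pold1, Pcna, Rfc1, Rfc2, Lig1, Gins2 and Gmnn, and none rose. The 7 are 15.9% of the members, beside 13.6% of all genes tested called lower and 5.87% called higher, so the share called lower was close to that of all genes. The shift was in the middle of the list rather than in the calls: the median log2 difference of the members was -0.48, beside -0.17 over all genes, and 38 of 44 members lay below 0 (86.4%, beside 63.9% of all genes). After median-of-ratios scaling the median of the members was -0.28, beside 0.03 over all genes, 34 of 44 lay below 0 (77.3%, beside 47.6%), and 2 members, Pold1 and Lig1, were called lower (beside 8.63% of all genes). In bulk RNA, fewer cells in S phase and less of these RNAs per cell cannot be told apart.

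**Figure D1:**
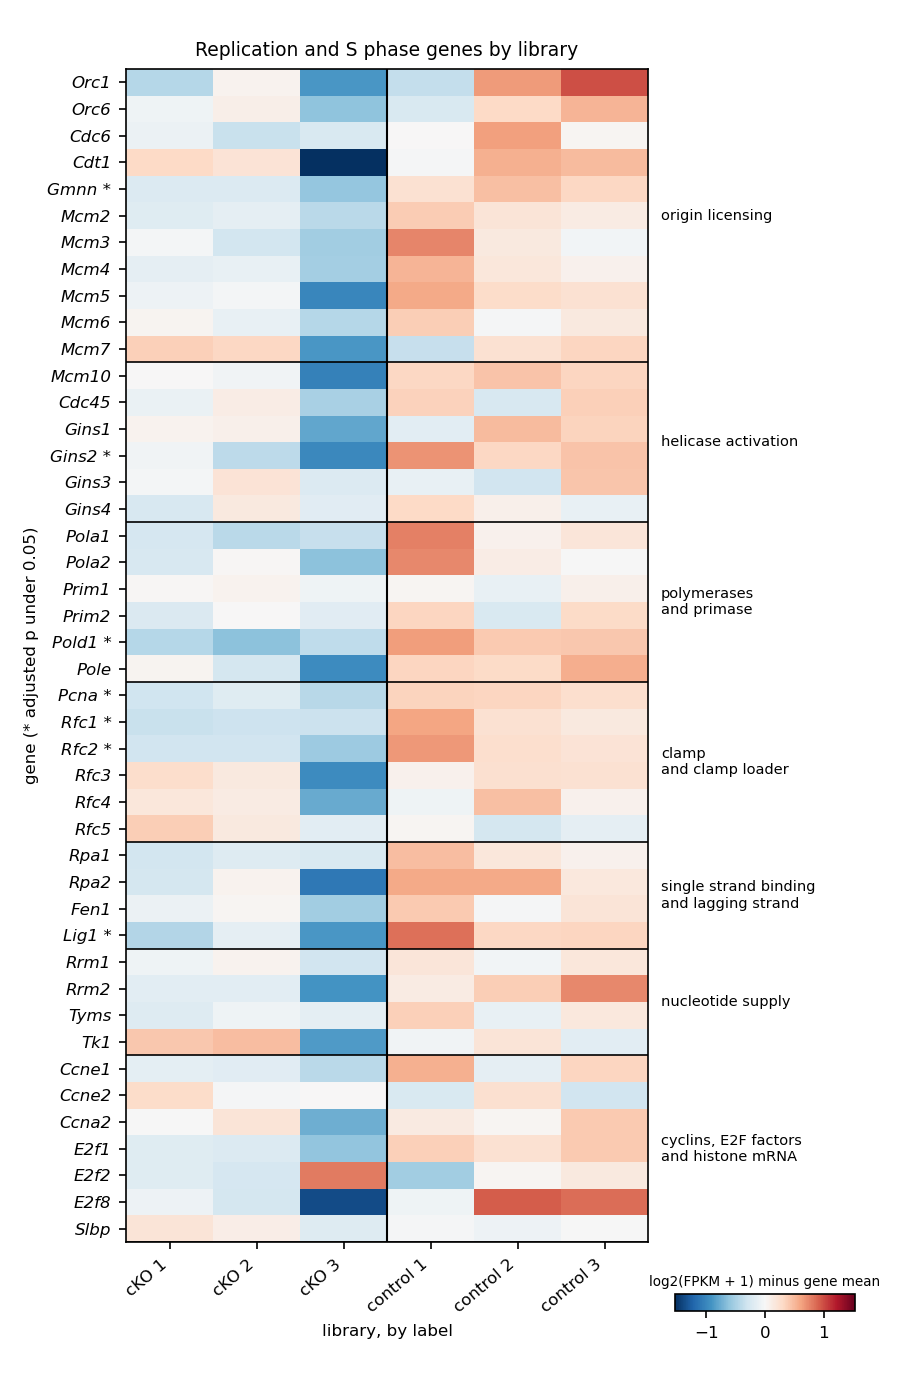
Level of each of the 44 members in each library, as log2(FPKM + 1) minus the mean of that gene over the 6 libraries, with genes grouped by role down the page and the 3 libraries labelled cKO left of the 3 labelled control. Blue is below the mean of the gene and red above it; an asterisk marks the 7 members with an adjusted p under 0.05, and cKO 3 is the lowest library for 31 of the 44 (70.5%, beside 43.98% of all genes tested).

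The libraries labelled cKO were not equally low. For 20 members all 3 libraries labelled cKO were below all 3 labelled control (45.5%, beside 30.9% of all genes tested), and for no member were all 3 above, beside 12% of all genes. Among the 20 is Cdc6, which passed the filter only through the libraries labelled control. The library labelled cKO 3 was below every control library for 38 members, cKO 1 for 27 and cKO 2 for 22, beside 53.5%, 40.7% and 41.2% of all genes tested. For 9 members, Orc6, Cdt1, Mcm7, Cdc45, Gins1, Rfc3, Rfc4, Tk1 and Slbp, cKO 3 alone was below the controls (20.5%, beside 15.7% of all genes tested). The summed level of the 44 genes was 503, 515 and 352 FPKM in the libraries labelled cKO 1, 2 and 3, against 665, 635 and 638 FPKM in those labelled control 1, 2 and 3. Without the library labelled cKO 3 the median difference of the members was -0.38 and 36 of 44 lay below 0, so the lower level was also present in the other two, at a smaller size. With 1 library left out, the members called lower were 3 without cKO 1 (beside 8.39% of all genes), 3 without cKO 2 (7.91%), 6 without cKO 3 (12.4%) and 2 each without control 1 (9.32%), 2 (6.15%) or 3 (6.77%). Pold1 and Pcna were among them every time.

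**Figure D2:**
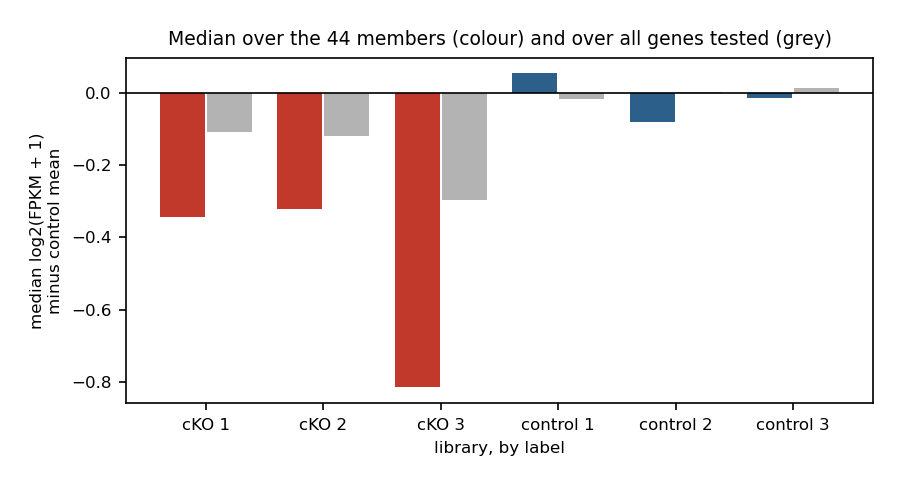
Median over the 44 members (coloured bars, red for libraries labelled cKO and blue for those labelled control) and over all 11603 genes tested (grey bars) of log2(FPKM + 1) minus the mean of the control libraries, for each library. The members stood at -0.34, -0.32 and -0.82 in cKO 1, 2 and 3, against 0.05, -0.08 and -0.01 in control 1, 2 and 3, while all genes stood at -0.11, -0.12 and -0.30 in cKO 1, 2 and 3.

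Spinous and melanocyte markers differed between the same libraries. The 8 spinous keratinocyte markers summed to 36327, 36852 and 70087 FPKM in the libraries labelled cKO 1, 2 and 3, against 5023, 6987 and 6410 FPKM in those labelled control, and 5 of the 8 were called higher. The library with the lowest replication genes, cKO 3, thus had the highest spinous sum. All 10 melanocyte markers were called lower, with sums of 182 to 403 FPKM in the libraries labelled cKO and 3003 to 3433 FPKM in those labelled control. The 8 fibroblast markers summed to 465, 432 and 151 FPKM in cKO 1, 2 and 3, against 108, 186 and 370 FPKM in control 1, 2 and 3, and the 6 Schwann cell markers to 71.5 to 94.8 FPKM in cKO libraries, against 119 to 151 FPKM in control libraries. Endothelial markers summed to 1.63 to 7.98 FPKM in cKO libraries, against 4.81 to 6.24 FPKM in control libraries, and the 5 immune markers in the table to 1.11 to 3.32 FPKM (cKO), against 1.68 to 2.66 FPKM (control). The 6 erythroid markers had sums of 7.43 to 45.6 FPKM in cKO libraries, against 3.29 to 48.8 FPKM in control libraries. The fibroblast, endothelial, immune and erythroid sums overlapped between the groups, and 1 Schwann cell marker was called lower. No marker was at 0 in every library. The part of these cells in the difference of the replication genes was not tested.

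Promoter letters were not used to choose the genes. RefSeq windows of 250 bases before to 50 bases after a transcript start (GRCm38.p6) were at hand for 34 of the 44 genes, 39 windows in all. The E2F letters TTTCCCGC, TTTGGCGC, TTTCGCGC or TTTGCCGC, on either strand, were in a window of 13 of these 34 genes (38.2%) and in none of the windows of the other 21, beside 4.82% of the 9318 tested genes with a window and 2.26% of all 32851 windows. The CCAAT letters were in windows of 22 of the 34 genes (64.7%), beside 42.9% of tested genes and 37.4% of all windows. The letters TTTGAA or TTCGAA, known from promoters of mitosis genes, were in 8 of the 34 (23.5%), beside 16.3% of tested genes and 19.2% of all windows. Other replication genes held E2F letters in 14 of 43 genes (32.6%) and G1/S control genes in 7 of 20 (35%), so a share of this size was not particular to the members. The mitosis genes held E2F letters in 1 of 21 genes, CCAAT in 18 of 21 (85.7%) and TTTGAA or TTCGAA in 17 of 21. The windows of 3 helicase genes with several matches, and of the 2 members whose fall held best under other settings, are printed 5′ to 3′ on the strand of the gene, with E2F letters in capitals.
Mcm3, chr1:20820263-20820562, minus strand: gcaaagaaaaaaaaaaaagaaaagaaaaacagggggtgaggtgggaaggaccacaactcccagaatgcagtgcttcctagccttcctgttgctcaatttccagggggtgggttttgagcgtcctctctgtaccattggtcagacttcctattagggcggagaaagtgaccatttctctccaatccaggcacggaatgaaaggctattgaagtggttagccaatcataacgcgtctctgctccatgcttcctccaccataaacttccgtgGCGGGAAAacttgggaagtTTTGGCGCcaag
Mcm5, chr8:75109259-75109558, plus strand: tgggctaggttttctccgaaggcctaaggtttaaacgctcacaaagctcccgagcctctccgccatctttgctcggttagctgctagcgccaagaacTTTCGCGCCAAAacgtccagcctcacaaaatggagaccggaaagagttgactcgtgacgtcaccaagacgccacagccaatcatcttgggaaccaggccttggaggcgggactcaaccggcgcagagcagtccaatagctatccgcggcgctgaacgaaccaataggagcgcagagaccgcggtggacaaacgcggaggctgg
Mcm6, chr1:128359656-128359955, minus strand: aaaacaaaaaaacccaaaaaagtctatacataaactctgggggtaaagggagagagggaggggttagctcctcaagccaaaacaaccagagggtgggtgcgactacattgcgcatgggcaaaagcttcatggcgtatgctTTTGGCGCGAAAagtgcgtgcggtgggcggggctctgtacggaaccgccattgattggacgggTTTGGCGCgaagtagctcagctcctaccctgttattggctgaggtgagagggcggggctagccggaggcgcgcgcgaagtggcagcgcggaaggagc
Pold1, chr7:44548766-44549065, minus strand: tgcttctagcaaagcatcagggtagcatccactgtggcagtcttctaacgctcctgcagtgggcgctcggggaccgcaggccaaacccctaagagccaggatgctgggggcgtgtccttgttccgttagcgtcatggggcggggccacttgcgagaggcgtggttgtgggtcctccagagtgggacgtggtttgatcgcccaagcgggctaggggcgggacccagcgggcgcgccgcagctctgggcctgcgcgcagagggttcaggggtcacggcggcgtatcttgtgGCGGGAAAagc
Pcna, chr2:132253131-132253430, minus strand: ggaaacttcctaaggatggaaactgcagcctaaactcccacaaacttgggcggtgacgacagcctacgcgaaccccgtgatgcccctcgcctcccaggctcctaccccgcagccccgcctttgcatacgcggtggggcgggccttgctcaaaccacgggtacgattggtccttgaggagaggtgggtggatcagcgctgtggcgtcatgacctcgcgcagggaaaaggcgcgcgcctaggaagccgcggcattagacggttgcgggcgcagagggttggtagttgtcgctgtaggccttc
Counted from the start site, with the start as position 1 and no position 0, the matches began at 20 and 39 in Mcm3, at -153 and -149 in Mcm5, at -110, -106 and -47 in Mcm6 and at 40 in Pold1. The pair in Mcm5, and the pair at -110 and -106 in Mcm6, are overlapping matches on opposite strands. The Pcna window held none of the 4 spellings, which says only that these letters are not in it. The 13 genes with a match had a median log2 difference of -0.56 and the 21 without -0.48. In each group 2 were called lower, beside 13.6% of all genes tested, and no test was made between them. The 10 members without a window could not be placed in either group. They had a median of -0.47, and 3 of them (Gmnn, Gins2 and Rfc2) were called lower.

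Among the 11 origin licensing genes, all lay below 0 (median log2 difference -0.51), beside 63.9% of all genes tested. After median-of-ratios scaling 10 of 11 did, with Mcm7 above 0, beside 47.6% of all genes. Of the 11, 1 was called, Gmnn. Gmnn encodes geminin, which keeps CDT1 from loading helicases a second time. It was at 5.11, 5.10 and 3.66 FPKM in the libraries labelled cKO and at 7.25, 8.65 and 7.77 FPKM in those labelled control, with no overlap between the groups. The log2 difference was -0.67 (SE 0.19, limma adjusted p = 0.0470), at the edge of the threshold. The call held under 2 of 14 other settings (adjusted p 0.0380 to 0.149) and was lost when any 1 library was left out, with adjusted p = 0.0969, 0.0982 and 0.0638 without cKO 1, 2 and 3 and 0.0689, 0.147 and 0.116 without control 1, 2 and 3. Cdt1, the target of geminin, was at 14.6, 13.6 and 3.38 FPKM in the libraries labelled cKO and at 11.5, 17.5 and 16.7 FPKM in those labelled control. Only cKO 3 stood below the controls, and the difference of -0.68 (SE 0.47, limma adjusted p = 0.338) did not pass.

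The helicase subunits Mcm2 to Mcm7, which form a ring of 6 different proteins, had no call. Mcm2 was nearest to the threshold, at 16.3, 16.9 and 13.7 FPKM in the libraries labelled cKO and 24.7, 21.5 and 20.5 FPKM in those labelled control. The groups did not overlap, and the log2 difference was -0.48 (SE 0.15, limma adjusted p = 0.0634). Mcm4 (means 15.2 (cKO) and 22.04 FPKM (control), log2 difference -0.51) and Mcm5 (12.2 (cKO) and 20.2 FPKM (control), -0.73) also showed no overlap, while Mcm3 (11.2 (cKO) and 17.3 FPKM (control), -0.56) and Mcm6 (19.6 (cKO) and 24.96 FPKM (control), -0.34) did, and none passed. Mcm7 had another pattern, with 45.02, 43.4 and 18.3 FPKM in the libraries labelled cKO and 27.0, 41.2 and 43.8 FPKM in those labelled control. It was low in cKO 3 and in control 1 and level in the other 4 libraries, so its difference was -0.14 (95% interval -0.96 to 0.67). In control 1 Mcm7 stood at 1.06 times the mean of Mcm2 to Mcm6, against 2.10 and 2.30 times in control 2 and 3; in cKO 1, 2 and 3 it stood at 2.71, 2.72 and 1.56 times.

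Of the origin genes, none passed. Orc1, the cell cycle regulated subunit of the origin recognition complex, was at 1.27, 2.18 and 0.654 FPKM in the libraries labelled cKO and at 1.38, 3.83 and 5.07 FPKM in those labelled control. Control 1 lay among the libraries labelled cKO, and the difference of -0.85 (SE 0.40, limma adjusted p = 0.174) did not pass although its size was among the larger ones of the list. It rested on 71 to 501 fragments a library. Cdc6, the loader that recruits CDT1, had means of 0.960 (cKO) and 1.73 FPKM (control) with no overlap (-0.45). Cdc6 passed the filter of a mean of 1 FPKM only through the libraries labelled control. It is counted among the members below 0 and without overlap, but is no support for a lower level. Orc6 had means of 15.1 (cKO) and 20.2 FPKM (control) with overlap (-0.40).

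Of the 6 genes that turn the loaded helicase into a moving fork, all lay below 0 (median log2 difference -0.38), beside 63.9% of all genes. After median-of-ratios scaling 4 of 6 did, with Gins3 and Gins4 above 0, beside 47.6% of all genes. Gins2 was called. GINS2 is 1 of the 4 subunits of the GINS complex. Gins2 was at 8.62, 6.54 and 4.04 FPKM in the libraries labelled cKO and at 15.01, 11.5 and 12.5 FPKM in those labelled control. Its groups did not overlap, and the log2 difference was -0.96 (SE 0.26, limma adjusted p = 0.0378; 0.0309 to 0.116 over 14 other settings, 6 of which called it). Without cKO 2 or control 1, 2 or 3 the call was lost (adjusted p = 0.0841, 0.101, 0.0852 and 0.0972), and median-of-ratios scaling gave -0.76 (adjusted p = 0.0529). In the GENCODE annotation of GRCm38, 67.3% of the exon bases of Gins2 lie opposite exons of Gse1, and without strand the reads of the 2 genes cannot be told apart there; Gse1 was at 8.18 to 10.7 FPKM in the libraries labelled cKO and 8.92 to 9.18 FPKM in those labelled control. The other GINS genes were not called. Gins1 had means of 5.09 (cKO) and 7.10 FPKM (control) (-0.44), Gins3 1.84 (cKO) and 1.92 FPKM (control) (-0.01) and Gins4 16.5 (cKO) and 18.8 FPKM (control) (-0.18), all with overlap. Mcm10, a scaffold of the starting fork, was at 3.33, 3.16 and 1.11 FPKM in the libraries labelled cKO and at 4.36, 4.84 and 4.44 FPKM in those labelled control, without overlap (-0.72, SE 0.30, limma adjusted p = 0.134). Cdc45 had means of 1.93 (cKO) and 2.65 FPKM (control) with overlap (-0.31).

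**Figure D3:**
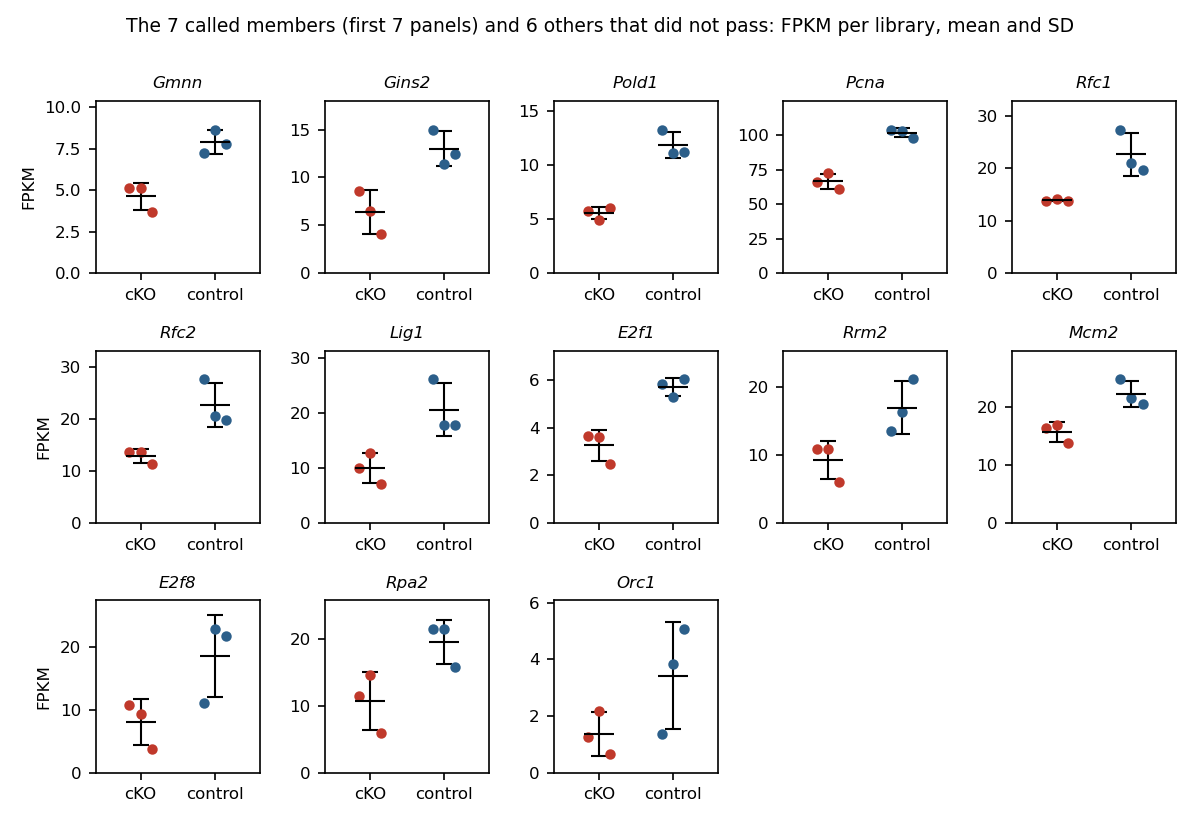
FPKM in each library (points), with the mean (long bar) and SD (whiskers, n = 3 per group), for the 7 called members and for 6 others that did not pass, being the 3 with the smallest adjusted p (E2f1, Rrm2, Mcm2) and the 3 with the largest difference (E2f8, Rpa2, Orc1). Libraries labelled cKO are left in red and those labelled control right in blue. The groups overlap for Orc1 alone among the 13, which were picked by adjusted p or difference in these data. That count is thus no support, and 20 of all 44 members showed no overlap with cKO lower (45.5%, beside 30.9% of all genes tested).

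Pold1 was the member called under every setting run. It encodes the catalytic subunit of polymerase δ and was at 5.77, 4.94 and 5.97 FPKM in the libraries labelled cKO and at 13.2, 11.1 and 11.2 FPKM in those labelled control. The highest library labelled cKO stayed well under the lowest control, and the spread within each group was small. The means were 5.56 ± 0.55 (cKO) and 11.8 ± 1.22 FPKM (control) (SD, n = 3 each), a log2 difference of -0.97 (SE 0.17, limma adjusted p = 0.0090), and all 14 other settings called it (adjusted p 0.00837 to 0.0396). The exact permutation test on the FPKM values, run two-sided, reached p = 0.1, the lowest possible with 3 libraries a group. Pole, the catalytic subunit of polymerase ε, was at 4.18, 3.18 and 1.59 FPKM in the libraries labelled cKO and at 5.35, 5.17 and 6.43 FPKM in those labelled control. It showed no overlap and did not pass (-0.79, SE 0.28, limma adjusted p = 0.0861).

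None of the 4 genes of polymerase α and primase passed. The catalytic subunit Pola1 was at 2.65, 2.27 and 2.41 FPKM in the libraries labelled cKO and at 6.47, 3.57 and 3.97 FPKM in those labelled control, without overlap (-0.69, SE 0.24, limma adjusted p = 0.0827). Its partner Pola2 had means of 3.44 (cKO) and 5.64 FPKM (control) with overlap (-0.57). The primase gene Prim1 was level, at 12.8, 13.2 and 12.1 FPKM in the libraries labelled cKO and 12.95, 11.7 and 13.4 FPKM in those labelled control (95% interval of the log2 difference -0.34 to 0.35), and Prim2 had means of 2.93 (cKO) and 3.77 FPKM (control) (-0.26, interval -0.78 to 0.26). Prim1 was level also in cKO 3, where most other members were lowest.

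Of the 6 genes of the sliding clamp and its loader, 3 were called lower (13.6% of all genes were), and Pcna, Rfc1 and Rfc2 each lost the call with median-of-ratios scaling. Pcna encodes the ring that tethers the polymerases, and it was by far the most abundant member, at 66.1, 72.2 and 61.02 FPKM in the libraries labelled cKO and at 104, 103 and 98.2 FPKM in those labelled control. The means were 66.4 ± 5.62 (cKO) and 102 ± 3.12 FPKM (control) (SD, n = 3 each), on 2770 to 4291 fragments a library, and the log2 difference was -0.61 (SE 0.12, limma adjusted p = 0.0122). Of 14 other settings 12 called it, leaving out any library included; the call was lost with median-of-ratios scaling (-0.39, adjusted p = 0.0543) and with limma-voom on whole fragments scaled the same way (-0.39, adjusted p = 0.0767). Its fall relative to the typical gene was therefore smaller than its fall in FPKM.

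Rfc1 and Rfc2 encode subunits of the clamp loader that opens PCNA. Rfc1 was at 13.7, 14.02 and 13.8 FPKM in the libraries labelled cKO and at 27.3, 20.9 and 19.6 FPKM in those labelled control (log2 difference -0.66, SE 0.17, limma adjusted p = 0.0311). Rfc2 was at 13.7, 13.7 and 11.3 FPKM in the libraries labelled cKO and at 27.6, 20.5 and 19.8 FPKM in those labelled control (-0.76, SE 0.18, limma adjusted p = 0.0249). Both were highest in control 1, showed no overlap and were called under 5 of 14 other settings. Median-of-ratios scaling ended both calls, with -0.44 for Rfc1 (adjusted p = 0.128) and -0.54 for Rfc2 (adjusted p = 0.0646). Rfc1 lost its call without cKO 1 or 2 (adjusted p = 0.0910 and 0.0886) and without control 1, 2 or 3 (0.0577, 0.0762 and 0.0527), and Rfc2 without the same libraries (0.0598, 0.0618, 0.0528, 0.0622 and 0.0503), while cKO 3 could be left out of either. Lat2 lies opposite 15.1% of the exon bases of Rfc2 and was at most 1.19 FPKM in any library. The other loader subunits did not pass. Rfc3 was at 16.7, 15.3 and 6.59 FPKM in the libraries labelled cKO and at 14.5, 16.5 and 16.4 FPKM in those labelled control, low in cKO 3 alone. Rfc4 had means of 8.63 (cKO) and 10.6 FPKM (control) (-0.31), and Rfc5 had means of 10.6 (cKO) and 8.67 FPKM (control) (0.25, SE 0.20, limma adjusted p = 0.399), the largest positive difference of the list and not past the threshold.

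**Figure D4:**
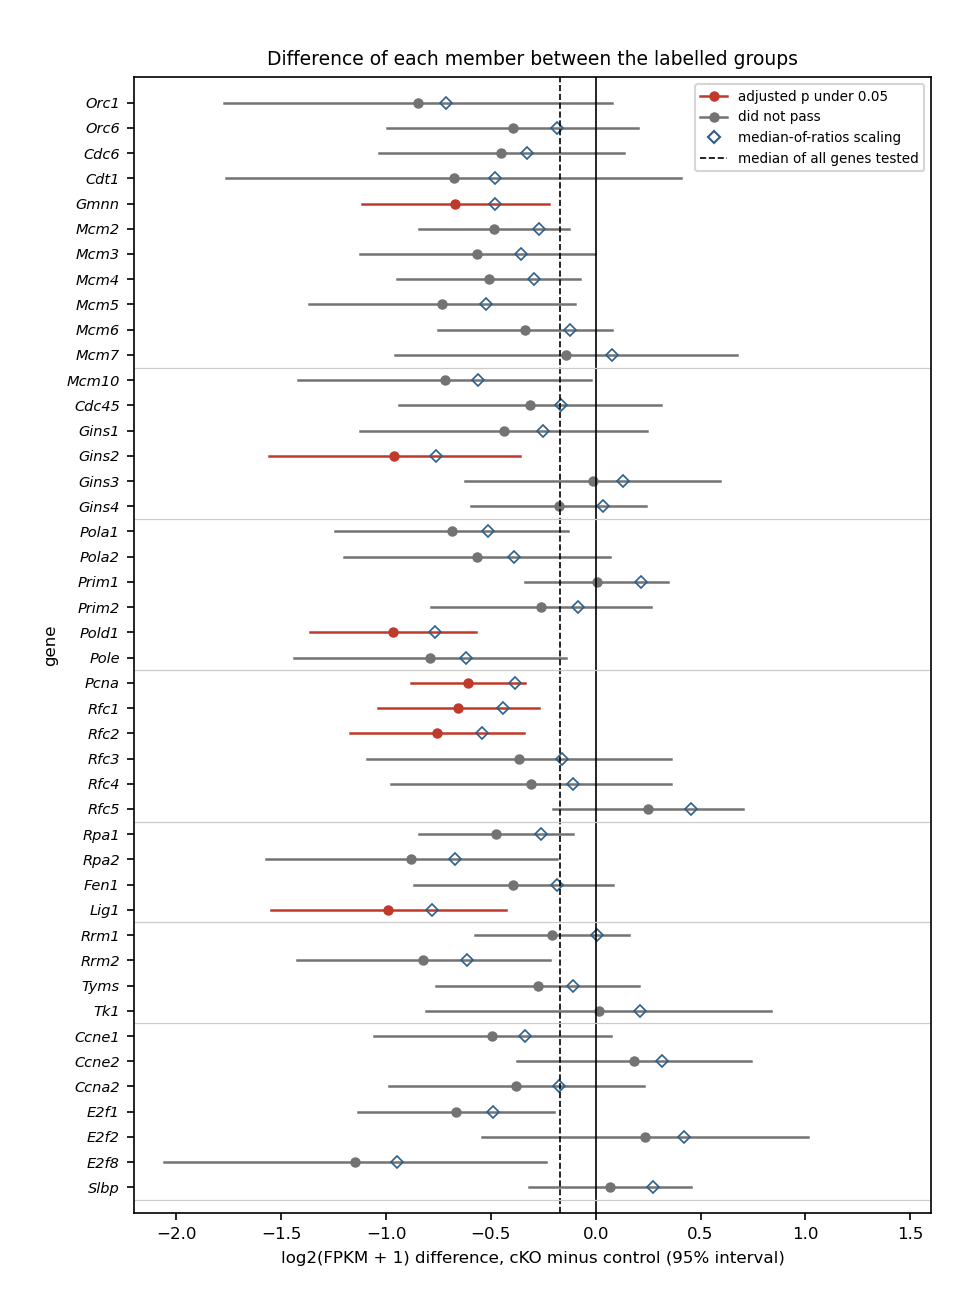
Difference of log2(FPKM + 1), cKO minus control, for each of the 44 members in order of role (points, with 95% intervals from limma), red where the adjusted p was under 0.05 and grey otherwise, with open diamonds for the difference after median-of-ratios scaling. The dashed line is the median of all genes tested (-0.17); 38 of the 44 points lie left of 0, from -1.15 for E2f8 to 0.25 for Rfc5, and scaling moves every point to the right.

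All 4 genes that coat single strands or finish the lagging strand lay below 0 (median log2 difference -0.68), beside 63.9% of all genes tested. Lig1, the ligase that joins Okazaki fragments, was at 10.05, 12.7 and 7.17 FPKM in the libraries labelled cKO and at 26.2, 17.8 and 17.9 FPKM in those labelled control. The groups were well apart, the means were 9.98 ± 2.77 (cKO) and 20.6 ± 4.80 FPKM (control) (SD, n = 3 each), and the log2 difference was -0.99 (SE 0.24, limma adjusted p = 0.0281; 0.0280 to 0.0743 over 14 other settings, 9 of which called it). With median-of-ratios scaling Lig1 stayed called (-0.78), and it lost the call without cKO 1 (adjusted p = 0.0658) and without control 1, 2 or 3 (0.0743, 0.0653 and 0.0622). Rpa2, a subunit of the protein that coats single strands, was at 11.5, 14.6 and 6.03 FPKM in the libraries labelled cKO and at 21.5, 21.5 and 15.8 FPKM in those labelled control. It showed no overlap and a difference of -0.88 (SE 0.30, limma adjusted p = 0.0768), and its larger partner Rpa1 had means of 14.6 (cKO) and 20.8 FPKM (control) (-0.48, adjusted p = 0.0732). Fen1, the nuclease that trims Okazaki fragments, had means of 10.6 (cKO) and 14.2 FPKM (control) with overlap (-0.39).

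Of the 4 genes that supply deoxynucleotides, none was called. Rrm2, the S phase subunit of ribonucleotide reductase, was at 10.9, 10.9 and 6.11 FPKM in the libraries labelled cKO and at 13.6, 16.3 and 21.2 FPKM in those labelled control. It showed no overlap and lay near the threshold (-0.82, SE 0.26, limma adjusted p = 0.0613), while Rrm1, the large subunit, had 14.2 to 18.2 FPKM in the libraries labelled cKO and 17.01 to 20.1 FPKM in those labelled control (-0.21, 95% interval -0.57 to 0.16). Thymidylate synthase, Tyms, had means of 2.49 (cKO) and 3.26 FPKM (control) (-0.28). The thymidine kinase gene Tk1 was at 11.8, 12.2 and 4.26 FPKM in the libraries labelled cKO and at 8.21, 9.94 and 7.55 FPKM in those labelled control, above every control in cKO 1 and 2 and below every control in cKO 3.

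The regulators lay on both sides of 0, with 4 of 7 below 0 (57.1%, beside 63.9% of all genes tested) and none called. E2f1, an activator of S phase genes, was at 3.67, 3.62 and 2.49 FPKM in the libraries labelled cKO and at 5.83, 5.27 and 6.03 FPKM in those labelled control. It lay just outside the threshold without overlap (-0.67, SE 0.20, limma adjusted p = 0.0533) and was called under 1 of the 13 other settings that tested it, the fit without a mean-variance trend (adjusted p = 0.0384). E2f8, a repressor among the E2F factors, had the largest difference of the list, at 10.8, 9.38 and 3.84 FPKM in the libraries labelled cKO and at 10.98, 22.7 and 21.7 FPKM in those labelled control (-1.15, SE 0.39, limma adjusted p = 0.0785). Control 1 lay next to cKO 1, far from the other controls. E2f2 lay above 0, at 3.13, 2.95 and 7.14 FPKM in the libraries labelled cKO and at 2.25, 3.79 and 4.23 FPKM in those labelled control, with its highest value in cKO 3 (0.24, limma adjusted p = 0.656).

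The cyclins of S phase entry did not pass. Ccne1 had means of 1.78 (cKO) and 2.97 FPKM (control) without overlap (-0.49, limma adjusted p = 0.192), Ccne2 had 1.80 (cKO) and 1.49 FPKM (control) (0.18) and Ccna2, the cyclin of S phase and G2, had 10.2 (cKO) and 13.1 FPKM (control) (-0.38). Slbp, the protein that binds the stem-loop of histone mRNAs, was at 13.4, 12.5 and 9.99 FPKM in the libraries labelled cKO and at 11.5, 10.9 and 11.6 FPKM in those labelled control. It lay above every control in cKO 1 and 2 and below every control in cKO 3 (95% interval of the log2 difference -0.32 to 0.45).

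By role, the summed FPKM was lower in the libraries labelled cKO in all 7 groups of members. The lagging strand genes had the lowest ratio, with sums of 47.0, 54.8 and 35.9 FPKM in the libraries labelled cKO and 88.6, 71.1 and 66.0 FPKM in those labelled control (ratio of means 0.610). Polymerases and primase stood at 0.680, the clamp and its loader at 0.688, helicase activation at 0.715, regulators at 0.733, licensing at 0.738 and nucleotide supply at 0.785. The origin licensing sum was 167, 163 and 96.1 FPKM in the libraries labelled cKO and 190, 193 and 195 FPKM in those labelled control, so the controls were close together and cKO 3 was far from the other two. The sums describe these libraries and carry no test.

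Other genes of the replication machinery also lay mostly below 0. Of 49 in the table, 39 lay below 0 (79.6%, beside 63.9% of all genes), with a median log2 difference of -0.32. Of these 49, 7 were called lower and none higher (14.3% lower, beside 13.6% of all genes). Called were Asf1b, a histone chaperone behind the fork (means 2.19 (cKO) and 5.57 FPKM (control), -1.04, SE 0.19, limma adjusted p = 0.0100), and the polymerase subunits Pold4 (7.01 (cKO) and 14.1 FPKM (control), -0.89), Pold3 (5.91 (cKO) and 9.84 FPKM (control), -0.65) and Pole4 (-0.77). The other calls were Dscc1, part of an alternative clamp loader (1.90 (cKO) and 4.79 FPKM (control), -0.98), the fork protein gene Donson (2.11 (cKO) and 4.64 FPKM (control), -0.84) and Mcmbp, which binds MCM proteins (20.9 (cKO) and 30.5 FPKM (control), -0.53). With limma-voom on whole fragments none of these 49 was called lower and 1 was called higher, against 2 and 1 with median-of-ratios scaling. Leaving out cKO 1, 2 or 3 gave 1, 2 or 6 lower, and leaving out control 1, 2 or 3 gave 3, 5 or 1.

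Genes that control the step from G1 to S were called lower in 7 of 26 tested (26.9%, beside 13.6%) and higher in none. Myc, a driver of growth and cycle entry, was at 43.9, 37.6 and 43.8 FPKM in the libraries labelled cKO and at 73.6, 78.8 and 88.9 FPKM in those labelled control (-0.93, SE 0.13, limma adjusted p = 0.00426). Also called were genes that restrain the step: Cdkn2d, an inhibitor of CDK4 and CDK6, had means of 5.08 (cKO) and 12.04 FPKM (control) (-1.10), the retinoblastoma family genes Rbl2 11.7 (cKO) and 21.2 FPKM (control) (-0.80) and Rb1 10.6 (cKO) and 16.5 FPKM (control) (-0.60), and the repressor E2f7 2.21 (cKO) and 5.22 FPKM (control) (-0.96). Cdkn2c (3.89 (cKO) and 7.80 FPKM (control), -0.89) was the sixth. Other such genes of the list did not pass, with log2 differences of -0.24 for Cdkn1a, -0.63 for Cdkn1b, -0.54 for Cdkn1c, -0.25 for Cdkn2b and 0.055 for Rbl1. Cdk2 had means of 42.8 (cKO) and 207 FPKM (control) (-2.34), and 34 of its exon bases (0.547%) lie opposite exons of the pigment gene Pmel, which had means of 54.9 (cKO) and 561 FPKM (control). The part of that overlap in the Cdk2 values was not tested. The 7 became 3 with median-of-ratios scaling or without cKO 1 or 2 or control 2 or 3, and 4 without cKO 3 or control 1.

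The mitosis genes, which follow the same cells into division, had no call among 25 in either direction (limma). Of all genes tested, 13.6% were called lower and 5.87% higher. An unadjusted limma p under 0.05 was reached by 1 of the 25, beside 4030 of the 11603 genes tested. None of the 25 was called by limma-voom, beside 964 genes higher and 990 lower. The median log2 difference of the mitosis genes, -0.17, was that of all genes. These genes summed to 269, 299 and 184 FPKM in the libraries labelled cKO, against 308, 223 and 291 FPKM in those labelled control, so the groups overlapped. Mki67, the proliferation marker, was at 22.2, 22.5 and 12.3 FPKM in the libraries labelled cKO and at 16.9, 17.6 and 20.8 FPKM in those labelled control. In cKO 1 and 2, where the replication genes were already below the controls at the median, Mki67 was above them. Whether the 2 lists differ was not tested.

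**Figure D5:**
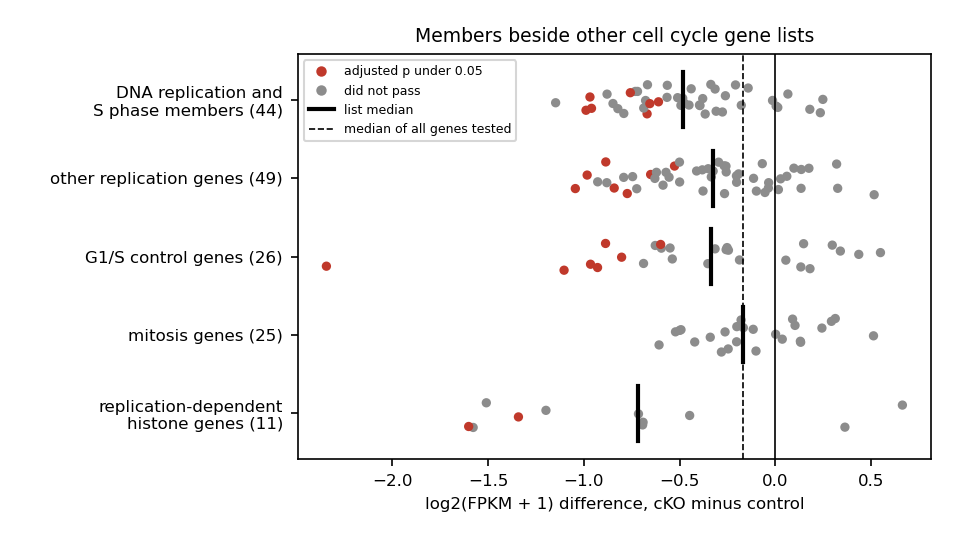
Difference of log2(FPKM + 1), cKO minus control, for every tested gene of 5 lists (points, spread vertically only for view; red where the adjusted p was under 0.05), with the median of each list as a thick bar and the median of all genes as a dashed line. The medians were -0.48 for the members, -0.32 for other replication genes, -0.33 for G1/S control genes, -0.17 for mitosis genes and -0.71 for the 11 tested histone genes; the point at -2.34 is Cdk2.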

How the data were processed

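Per the labels, the 6 libraries are RNA-seq of total RNA prepared with the VAHTS Universal V6 kit. The authors deposited FPKM values for 17025 genes; fastp, HISAT2 and HTSeq with GRCm39 appear in the submitters' processing notes, without versions. Annotation, gene filter and strand setting: not given in the sources used here, so overlapping genes are uncertain. Low values were whole multiples of 1 fragment, and whole fragments were recovered for all 17025 genes within a tolerance of 1e-09, which gave the library totals. No pair of libraries agreed within sampling noise, but cKO 1 and 2 were much closer to each other than any other pair (chi-square per gene 14.2). The value was 234 and 230 for cKO 3 against cKO 1 and 2, and 48.7 to 126 between control libraries. If cKO 1 and 2 are not separate animals, the p-values are too small, and the labels do not say.

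The test was limma 3.58.1 (R 4.3.3) on log2(FPKM + 1), for genes averaging 1 FPKM or more, group as the only term, a mean-variance trend and Benjamini-Hochberg adjustment over 11603 genes. Differences on this scale understate the change of low genes. The test was also run on simulated fragments with the same dispersion for every gene and few genes changed. They held neither the keratin shift nor a library as far off as cKO 3, so the run gives no error rate for these data. Values in each library are given for called members, the 3 others with the smallest adjusted p and the 3 with the largest difference; further members and Mki67 were detailed after their values were seen. The members and lists were chosen with earlier results of these data known. Settings tried were another pseudocount, filters, scalings, variance model, a replicate block, limma-voom and each library left out. Promoter windows are RefSeq sequences of GRCm38.p6, matched by symbol; overlaps come from GENCODE M21, another build than the files'. Figures were drawn with matplotlib 3.10.9.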

Additional observations from a re-analysis of the deposited data

How the results depend on the processing

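Pold1 was called under all 14 other settings, Pcna under 12, Lig1 under 9, Gins2 under 6, Rfc1 and Rfc2 under 5 and Gmnn under 2. Of 602 member values under other settings, 530 kept their direction and their side of the threshold, 45 lost a call, 1 gained it and 26 changed sign, none of the last being a call. The cause was not tested, apart from the scalings, which by construction centre all genes near 0. The members had 71 to 4359 fragments a library.

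Counts of members lower were 4 with no filter, 2 with median-of-ratios scaling, 4 with quantile scaling and 2 with limma-voom, and 2 to 6 with 1 library left out; the median difference of members was -0.28, -0.27 and -0.30 under the 2 scalings and limma-voom and -0.56 to -0.38 with 1 library left out. Over all genes, 549 were higher and 1340 lower with no filter, 534 and 1148 at 5 FPKM and 645 and 1489 with the pseudocount of 0.1. Of 11603 genes tested, 1044 were higher and 1001 lower (8.63%) with median-of-ratios scaling. Those counts were 1023 and 1089 with quantile scaling and 964 and 990 with limma-voom. With 1 library left out, 393 to 713 were higher and 710 to 1453 lower (6.15 to 12.4% lower). The counts of each list stand beside these and are not read as results about the list. Other replication genes lower were 4 with no filter, 4 with a mean of at least 5 FPKM, 2 and 1 under the scalings and 0 with limma-voom, and 1 to 6 with 1 library left out; 1 was higher under each scaling and limma-voom. G1/S control genes lower were 3 with no filter, 3 and 4 under the scalings and 4 with limma-voom, and 3 to 4 with 1 library left out; higher were 1, 1 and 2, and 0 to 1 with 1 library left out. Histone genes lower were 1 with the pseudocount of 0.1, 1 with no filter, 1 at 5 FPKM, 1 with quantile scaling and 0 with limma-voom, and 0 to 3 with 1 library left out. Ash2l was at 0.67 to 0.94 with 1 library left out.

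Same-numbered libraries did not deviate together: the correlations of their deviations were -0.31, 0.08 and -0.26 for numbers 1, 2 and 3, and no library correlated best with its own number. With the replicate number as a block, 432 genes were higher and 893 lower, 3 members were lower (Lig1, Pcna and Pold1), as were 1 other replication gene, 3 G1/S control genes and 1 histone gene, and Ash2l at 0.81 was not called (adjusted p = 0.0613).

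Signs changed with median-of-ratios scaling, quantile scaling and limma-voom for Mcm7 (0.077, 0.038 and 0.083), Gins3 (0.13, 0.23 and 0.22), Gins4 (0.036, 0.024 and 0.041) and Rrm1 (0.0062, 0.0020 and 0.0078), and with the pseudocount of 0.1 for Tk1 (-0.0018). With 1 library left out they changed for Mcm7 (-0.36 to 0.27), Gins3 (-0.16 to 0.20), Prim1 (-0.049 to 0.044), Rfc3 (-0.59 to 0.021), Tk1 (-0.22 to 0.45), E2f2 (-0.10 to 0.42) and Slbp (-0.014 to 0.18).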

Other observations

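The replication-dependent histone genes, whose RNAs are made in S phase and for the most part lack a poly(A) tail, were mostly low in these libraries. Of 57 in the table, 11 reached a mean of 1 FPKM, and 2 of the 11 were called lower (18.2%, beside 13.6% of all genes) and none higher. H4c9 was at 3.25, 6.41 and 2.00 FPKM in the libraries labelled cKO and at 13.8, 8.78 and 17.2 FPKM in those labelled control (log2 difference -1.60, SE 0.37, limma adjusted p = 0.0223; up to 0.0904 over other settings). H4c12 was listed at 0 and at 1.15 and 0.679 FPKM in the libraries labelled cKO and at 2.17, 3.25 and 3.36 FPKM in those labelled control (-1.34, SE 0.32, adjusted p = 0.0265; up to 0.162). H4c12 passed the filter of a mean of 1 FPKM only through the libraries labelled control. A gene that enters so can hardly be called higher, so its call is no support for a lower level. Copies of these genes are near identical, so how their reads were shared out is uncertain.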
